A study of Mus musculus with 13 samples.

Results

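The genes described here are 10 genes that mark the lining of blood and lymphatic vessels: Pecam1, Cdh5, Kdr, Flt1, Flt4, Tek, Tie1, Vwf, Lyve1 and Prox1. They were selected by gene symbol, and all 10 were present among the 15213 genes of the deposited expression table. The libraries were made from total RNA: 10 came from mammary tumors that had arisen in 6 MMTV-tTA TetO-Tsg101 females. The other 3 were from the glands of wild-type FVB females, 1 each. Every tumor carried both transgenes, an MMTV-driven tTA activator and a TetO-controlled HA-Tsg101 coupled to luciferase (MtTA Teto-TSG101wt in the labels); tTA drives such a transgene in the absence of doxycycline. The MMTV promoter directs expression to the luminal epithelium, though not to every cell of it, and the endothelium is not a tissue in which the study describes it as active. A single TetO-Tsg101 founder line had been chosen for the molecular studies, and the transgenes were kept in the FVB/N background. The ages of the animals and the reproductive stage of the glands were not given in the sources used here. Of the tumor-bearing females, 3 contributed 1 tumor, 2 contributed 2 tumors and 1 contributed 3 tumors. Tumors of the same female are therefore not independent samples, and p-values measure the spread between these libraries.

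Endothelial cells are held together at their borders by VE-cadherin (Cdh5) and PECAM-1 (Pecam1). Their growth and survival depend on the VEGF receptors, encoded by Flt1, Kdr and Flt4, and on the angiopoietin receptor Tie2 (Tek) with its partner Tie1. Von Willebrand factor (Vwf) is made and stored by endothelial cells and platelets, whereas Lyve1, Flt4 and the transcription factor Prox1 are used to recognise lymphatic vessels. In the mammary gland, capillaries surround the ducts and alveoli and supply the adipose tissue of the fat pad.

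The endothelial genes were lower in the tumors. In limma on log2(normalized cpm + 1), where normalized cpm is the deposited unit and 1 the pseudocount, a gene was called significantly lower or higher where its log2 fold change lay beyond 1 in either direction and its Benjamini-Hochberg adjusted p was under 0.05. Pecam1, Cdh5, Kdr, Tek, Tie1 and Vwf were significantly lower, no endothelial gene was significantly higher (10.2% of all genes tested were), and Flt1, Flt4, Lyve1 and Prox1 did not pass the test. Among all 11795 genes tested, 6.99% were called lower. The same 6 genes were those for which all 10 tumors lay below all 3 glands, which held for 8.53% of the genes tested. Flt4, Lyve1 and Prox1 did not pass the filter on low values, since most libraries had no more than 5 normalized cpm of them; they were taken from the same fit without the filter, in which 10.1% of 15213 genes were called lower and 10.5% higher. Without the filter, the 10 log2 fold changes had a median of −1.35, compared with 0.01 over the whole table. All 10 log2 fold changes were negative. In bulk tissue, fewer endothelial cells and less RNA of these genes per endothelial cell cannot be told apart.

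**Figure D1:**
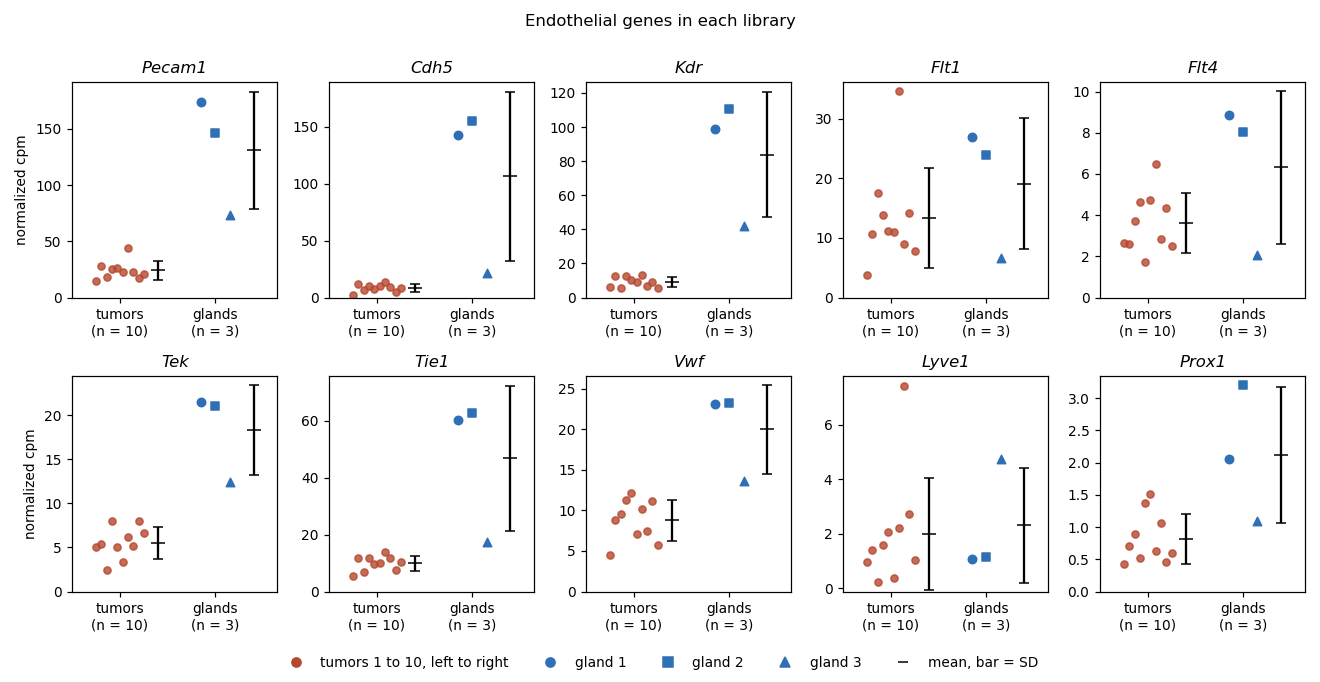
Normalized cpm (vertical axes, linear, starting at 0 or, for Lyve1, just below it) of each endothelial gene in each library. Circles in red are the tumors 1 to 10 from left to right, blue symbols the 3 glands, and bars the mean ± SD of each group. For Pecam1, Cdh5, Kdr, Tek, Tie1 and Vwf all tumors lie below all glands, and gland 3 is the lowest gland for every gene except Lyve1.

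The glands were not uniform. Reads on the listed genes numbered 6176269 to 16835397 in a tumor library, and glands 1, 2 and 3 held 23889042, 21407069 and 11672487 reads. The sum of the 10 endothelial genes was 559 normalized cpm in gland 1, 555 in gland 2 and 194 in gland 3, against 46.6 to 145 in the tumors. The tumors were thus below gland 3 as well, although gland 3 was far from the other two. The ribosomal RNA gene Rn45s took 4.35% of the reads in gland 3, compared with 0.324% and 0.296% in glands 1 and 2, and between 0.456% and 27.4% in the tumors. Gland 3 also had less of long and of GC-rich transcripts. Its log2 level minus the mean of glands 1 and 2 had a median of 0.57 among the shortest transcripts (up to 1952 bases, 2891 genes) and of −0.52 among the longest (from 4618 bases, 2890 genes). All endothelial genes except Lyve1 have transcripts longer than 3095 bases, the middle of the range, and the same difference was −2.74 for Cdh5, −1.80 for Flt1, −1.76 for Tie1, −1.62 for Flt4, −1.30 for Kdr, −1.12 for Pecam1 and between −0.77 and −0.72 for Prox1, Tek and Vwf. Lyve1 was the exception, with +1.45. By GC content of the transcript, the median difference was 0.33 in the class with the lowest content and −0.53 in that with the highest. Across 11561 genes, which are not independent replicates, the Spearman correlation with the difference was −0.451 for length and −0.360 for GC content. The part of either property in the differences of the endothelial genes was not tested.

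**Figure D2:**
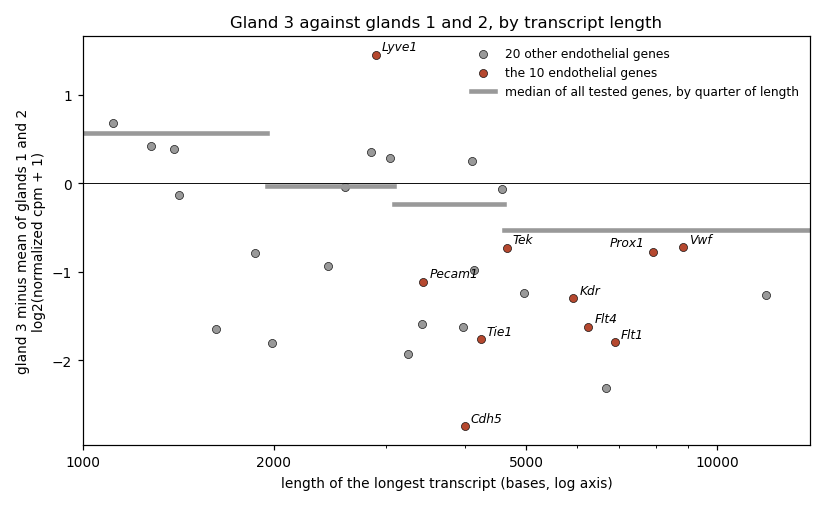
Difference between gland 3 and the mean of glands 1 and 2 on the log2(normalized cpm + 1) scale (vertical axis) against the length of the longest transcript in bases (horizontal log axis). Red points are the 10 endothelial genes, grey points the 20 other endothelial genes, and grey bars the median of all tested genes in each of 4 length classes of equal size; 9 of the red points lie below 0 and Lyve1 at +1.45.

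Markers of other cells did not all move with the endothelial genes. Of 10 adipocyte markers, 9 were significantly lower in the tumors, 7 of them outside the filter on low values. Among all genes, 6.99% were called lower in the filter and 10.1% over the whole table. The adipocyte markers had summed levels of 53.2 to 309 normalized cpm in the tumors and 2088, 2316 and 4092 in glands 1, 2 and 3. Plin1 and Lep, a lipid droplet protein and leptin, were at 0 in the tumors with their lowest values. Of 10 epithelial markers none was lower and 4 were higher, with sums of 2401 to 4762 in the tumors and 1966, 2875 and 1287 in the glands. Of 10 fibroblast markers 4 were lower and 1 was higher. The part of these shifts in the fall of the endothelial genes was not tested.

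The adhesion molecules of endothelial junctions fell most, together with Kdr. Pecam1 (Entrez 18613, chr11:106654213-106715281 in GRCm38.p6) was at 15.1 normalized cpm in the lowest tumor, at a median of 22.6 and at 44.0 in the highest tumor, and at 174, 146 and 73.0 in glands 1, 2 and 3. The groups did not overlap, although the highest tumor, tumor 7, stood apart from the other tumors. Tumors averaged 24.1 ± 8.16 normalized cpm (SD, n = 10) and glands 131 ± 52.1 (SD, n = 3), and the log2 fold change was −2.37 ± 0.29 (SE; limma, adjusted p = 2.95e-05). Cdh5 (Entrez 12562, chr8:104101613-104144504) ranged from 2.58 to 13.6 normalized cpm in the tumors, with a median of 8.90, and was at 142, 155 and 21.3 in the glands. All tumors were below gland 3, which itself was several times below the other glands. The means were 8.54 ± 3.36 and 106 ± 73.9 normalized cpm. With all libraries, Cdh5 had the most negative log2 fold change of the 10 genes, with −3.16 ± 0.51 (SE, limma, adjusted p = 0.000330). Without gland 1 it was −2.73 against −2.84 for Kdr, and without gland 2 it was −2.67 against −2.76 for Kdr. With gland 3 as the only gland, and its spread assumed to be that of the other libraries, the log2 fold change of Cdh5 was −1.33 and no longer passed (adjusted p = 0.157), whereas Pecam1 remained significantly lower with −1.62 (adjusted p = 0.0193).

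Of the VEGF receptors, only Kdr was significantly lower. Kdr (Entrez 16542, chr5:75932827-75979072, minus strand) encodes VEGFR2, the main signalling receptor for VEGF-A in blood vessels. Its level was 5.34 normalized cpm in the lowest tumor, 9.15 at the median and 13.004 in the highest tumor, and 98.7, 111 and 41.8 in glands 1, 2 and 3. The tumors formed a narrow group far below each gland. The log2 fold change was −3.02 ± 0.32 (SE; limma, adjusted p = 7.47e-06), and the gland mean was 9.25-fold the tumor mean. Kdr passed under every one of the 26 alternatives run for it, among them gland 3 as the only gland (−2.15, adjusted p = 0.00656).

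Flt1 (Entrez 14254, chr5:147561604-147726438, minus strand) encodes VEGFR1, which binds VEGF-A and placental growth factor and, as a soluble form, withholds VEGF-A from Kdr. It was at 3.84 normalized cpm in the lowest tumor, 11.1 at the median and 34.6 in the highest tumor, and at 26.9, 23.9 and 6.58 in glands 1, 2 and 3. The groups overlapped: only tumor 1 was below gland 3 and only tumor 7 was above gland 1. By a normal approximation, narrower than the t distribution of limma would give, the 95% interval of the log2 fold change ran from −1.39 to 0.48. The log2 fold change itself, −0.46 ± 0.48 (SE, limma, adjusted p = 0.526), did not pass. Its direction depended on the gland library, with −1.05 (adjusted p = 0.106) without gland 3 and 0.74 (adjusted p = 0.521) with gland 3 alone. Its call depended on the scaling as well: with libraries scaled to 10 epithelial genes, which moves the median of all genes tested to −1.02, it was −1.46 and passed (adjusted p = 0.00629).

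Flt4 (Entrez 14257, chr11:49609679-49652739, plus strand) encodes VEGFR3, the receptor for VEGF-C and VEGF-D in lymphatic vessels and in sprouting blood vessels. Its tumor levels ran from 1.71 to 6.50 normalized cpm, with a median of 3.27, and the glands were at 8.86, 8.05 and 2.07. Glands 1 and 2 were above all tumors, whereas gland 3 was above tumor 5 alone. The log2 fold change was −0.55 ± 0.35 (SE; limma, adjusted p = 0.252). Without gland 3 it was −1.09 and passed (adjusted p = 0.0178), and with gland 3 alone it was 0.53 (adjusted p = 0.465). With libraries scaled to the epithelial genes it was −1.43 and passed (adjusted p = 0.000971). In that setting the median of all genes tested was −1.02, and 5875 of 11795 genes were called lower.

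The levels of these receptors were also compared within each library, where the depth and the scaling of the library cancel. The ratio of Flt1 to Kdr in normalized cpm was between 0.653 and 3 in the tumors, with a median of 1.28, and between 0.157 and 0.272 in the glands, so that all 10 tumors lay above all 3 glands. The ratio of Flt4 to Kdr was 0.169 to 0.635 in the tumors and 0.0496 to 0.0898 in the glands, again without overlap. Within the glands, gland 3 had the lowest value of both ratios. These ratios were formed after the values of the single genes were known, were not corrected for gene length and were given no test.

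**Figure D3:**
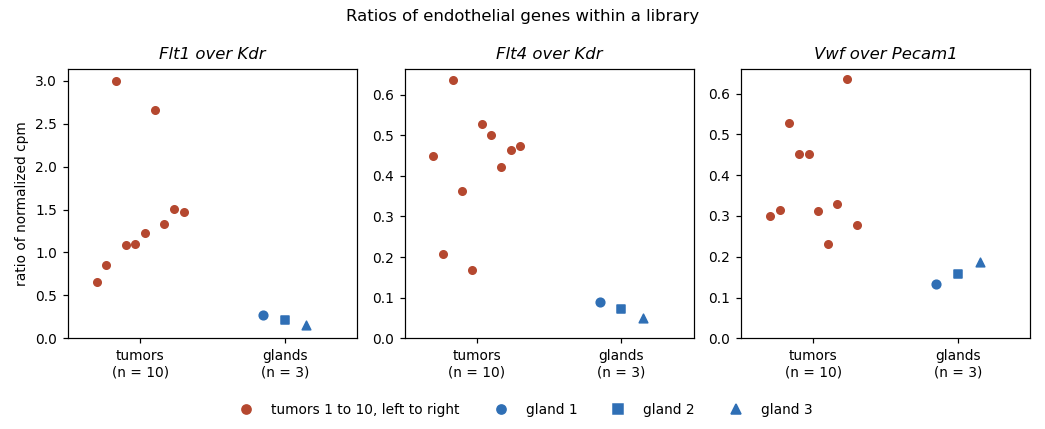
Ratios of normalized cpm (vertical axes, linear, from 0) within each library, for Flt1 over Kdr, Flt4 over Kdr and Vwf over Pecam1. Red points are tumors 1 to 10 from left to right and blue symbols the 3 glands; in each panel all tumors lie above all glands, with Flt1 over Kdr at 0.653 to 3 in the tumors and 0.157 to 0.272 in the glands.

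The 250 bases upstream of a transcript start are shown for Kdr and Flt1, of which only Kdr was called lower, and for Tek and Tie1, which were both called lower. The start is the one of the RefSeq promoter table. For Kdr, Flt1 and Tek it lies inside the outer bounds of the gene given above or below, so that the window falls within those bounds for Kdr and Flt1 and partly within them for Tek. Sequences are those of RefSeq (GRCm38.p6), written 5′ to 3′ on the strand of the gene. Capitals mark CAGGAA or its reverse complement TTCCTG, which holds the GGAA core recognised by ETS family factors, and TATAAA or its reverse complement TTTATA, the TATA box; the motif of GATA factors, with the letters AGATAA, was searched as well. Both strands were searched, and the matches found do not overlap each other.
Kdr (chr5:75978456-75978705, minus strand): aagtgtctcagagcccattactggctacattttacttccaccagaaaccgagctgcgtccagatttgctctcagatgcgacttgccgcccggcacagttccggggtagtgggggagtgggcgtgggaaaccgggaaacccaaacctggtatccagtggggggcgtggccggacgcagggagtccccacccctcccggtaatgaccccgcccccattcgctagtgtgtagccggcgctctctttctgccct
Flt1 (chr5:147726012-147726261, minus strand): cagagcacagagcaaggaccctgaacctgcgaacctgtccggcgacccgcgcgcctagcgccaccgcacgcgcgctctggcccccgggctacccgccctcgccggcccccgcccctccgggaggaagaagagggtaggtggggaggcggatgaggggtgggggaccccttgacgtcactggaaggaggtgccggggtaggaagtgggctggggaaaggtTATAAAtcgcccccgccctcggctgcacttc
Tek (chr4:94739039-94739288, plus strand): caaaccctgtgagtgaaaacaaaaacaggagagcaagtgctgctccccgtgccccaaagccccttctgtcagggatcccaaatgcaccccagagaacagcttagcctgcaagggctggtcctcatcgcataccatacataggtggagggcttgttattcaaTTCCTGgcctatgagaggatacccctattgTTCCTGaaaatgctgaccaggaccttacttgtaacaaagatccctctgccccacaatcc
Tie1 (chr4:118489850-118490099, minus strand): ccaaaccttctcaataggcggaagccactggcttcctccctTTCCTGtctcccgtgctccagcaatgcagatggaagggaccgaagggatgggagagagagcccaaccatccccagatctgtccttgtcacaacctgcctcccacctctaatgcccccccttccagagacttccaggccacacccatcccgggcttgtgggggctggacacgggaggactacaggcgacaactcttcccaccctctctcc

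Positions and strands of matches are relative to the gene as printed. CAGGAA was found as its reverse complement TTCCTG at 89 to 84 and at 59 to 54 bases before the start of Tek and at 209 to 204 bases before that of Tie1, that is in 2 of the 6 endothelial genes with a promoter entry (Kdr, Flt1, Flt4, Tek, Tie1 and Prox1), compared with 25.7% of 32851 mouse promoters of the same length. TATAAA was found at 31 to 26 bases before the start of Flt1 and, as its reverse complement TTTATA, at 34 to 29 bases before one of the 2 starts of Prox1, compared with 12.4% of all promoters. AGATAA was found in none of the 6, compared with 9.99% of all promoters. The window upstream of Kdr held none of these 3 motifs. A match describes these letters and not a bound site.

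Both Tie receptors fell. Tek (Entrez 21687, chr4:94739086-94874976, plus strand), whose product Tie2 is activated by angiopoietin 1, was at 2.47 normalized cpm in the lowest tumor, 5.31 at the median and 7.98 in the highest tumor, and at 21.5, 21.0 and 12.4 in glands 1, 2 and 3. Tie1 (Entrez 21846, chr4:118471191-118489849, minus strand), an orphan receptor that modulates Tie2, was between 5.64 and 13.7 normalized cpm in the tumors, with a median of 10.1, and at 60.5, 62.7 and 17.4 in the glands. For both genes every tumor was below every gland. The log2 fold change was −1.58 ± 0.28 for Tek (SE; limma, adjusted p = 0.000629) and −1.97 ± 0.33 for Tie1 (adjusted p = 0.000459). With gland 3 as the only gland neither passed, with −1.10 for Tek (adjusted p = 0.127) and −0.80 for Tie1 (adjusted p = 0.202). The ratio of Tie1 to Tek overlapped between the groups, with 0.943 to 3 in the tumors and 1.40 to 2.98 in the glands.

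Vwf (Entrez 22371, chr6:125552948-125686679), whose product tethers platelets to injured vessel walls, was at 4.50 normalized cpm in the lowest tumor, 9.21 at the median and 12.1 in the highest tumor, and at 23.1, 23.2 and 13.7 in glands 1, 2 and 3. The groups were separate, but the highest tumor and gland 3 were close. Its log2 fold change of −1.11 ± 0.26 (SE; limma, adjusted p = 0.00561) was the smallest of the 6 genes that fell. Without gland 1 or without gland 2 it was −0.99 in each case and missed the 2-fold limit, with adjusted p-values of 0.0448 and 0.0389, and with gland 3 alone it was −0.63 (adjusted p = 0.361). The platelet markers listed were at sums of 9.82 to 19.6 normalized cpm in the tumors and 16.0, 17.2 and 35.0 in the glands, with Pf4, Itga2b and Gp1bb measured; 1 of the 3 was higher and none lower. Within the libraries, the ratio of Vwf to Pecam1 was 0.231 to 0.636 in the tumors and 0.133 to 0.187 in the glands, without overlap, whereas the ratio of Cdh5 to Pecam1 overlapped, with 0.171 to 0.456 in the tumors and 0.292 to 1.06 in the glands.

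The lymphatic genes were measured with few reads. Lyve1 (Entrez 114332, chr7:110850607-110862953), a hyaluronan receptor of lymphatic endothelium that some macrophages also carry, was at 0.225 normalized cpm in tumor 3, at a median of 1.51 and at 7.41 in tumor 8, and at 1.07, 1.14 and 4.75 in glands 1, 2 and 3. Here gland 3 was the highest gland and lay above 9 of the 10 tumors. These values rest on 2 to 63 reads a library, and the log2 fold change of −0.19 ± 0.48 (SE; limma, adjusted p = 0.795) turned to 0.29 (adjusted p = 0.677) without gland 3. The macrophage markers had a sum of 738, 465 and 1912 normalized cpm in glands 1, 2 and 3 and of 857 to 4534 in the tumors; their part in the level of Lyve1 was not tested.

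Prox1 (Entrez 19130, chr1:190118035-190170827, minus strand), the transcription factor that sets lymphatic identity, was between 0.420 and 1.51 normalized cpm in the tumors, with a median of 0.669, and at 2.06, 3.20 and 1.10 in the glands, on 2 to 62 reads a library. Of the 10 tumors, 8 were below gland 3, and all were below glands 1 and 2. The log2 fold change of −0.75 ± 0.24 had an adjusted p of 0.0253 in limma but missed the 2-fold limit. For a gene this low the pseudocount of 1 compresses the change, and with a pseudocount of 0.25 it was −1.13 and passed (adjusted p = 0.0323). On the recovered reads it passed with −1.38 in edgeR's quasi-likelihood test (adjusted p = 0.0169) and −1.39 in DESeq2 (adjusted p = 0.0135). Without gland 3 it passed with −1.01 (adjusted p = 0.00819). It also passed with libraries scaled to the epithelial genes (−1.42, adjusted p = 4.82e-05), where the median of all genes tested was −1.02 and 5875 genes were called lower. It was −0.74 without gland 1 (adjusted p = 0.0908), −0.51 without gland 2 (adjusted p = 0.183), −0.23 with gland 3 alone (adjusted p = 0.683) and −0.71 without the female with 3 tumors (adjusted p = 0.0642). The adjusted p was between 4.82e-05 and 0.683 over the alternatives run for Prox1.

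Per kilobase of annotated exon, Pecam1 had the highest level of the 10 genes in both tissues and Prox1 the lowest. In the glands the order was Pecam1 with 31.7 ± 12.6 normalized cpm per kilobase (SD, n = 3), Cdh5 with 26.6 ± 18.5, Kdr with 14.1 ± 6.21, Tie1 with 10.3 ± 5.60, Tek with 3.89 ± 1.08, Vwf with 2.04 ± 0.561, Flt1 with 1.74 ± 1.00, Flt4 with 1.01 ± 0.593, Lyve1 with 0.802 ± 0.729 and Prox1 with 0.252 ± 0.126. Neighbours in this order differed by more than the larger of their SDs only between Tie1 and Tek and between Tek and Vwf. In the tumors Pecam1, at 5.82 ± 1.97 (SD, n = 10), was followed by Tie1 with 2.18 ± 0.567, Cdh5 with 2.14 ± 0.840, Kdr with 1.53 ± 0.512, Flt1 with 1.22 ± 0.762, Tek with 1.18 ± 0.379, Vwf with 0.899 ± 0.259, Lyve1 with 0.692 ± 0.712, Flt4 with 0.579 ± 0.230 and Prox1 with 0.0972 ± 0.0457. There, only the steps from Pecam1 to Tie1 and from Flt4 to Prox1 exceeded the larger SD. Cdh5 and Kdr stood above Tie1 in the glands and below it in the tumors, where the difference from Tie1 was within the SDs for Cdh5 and larger than both SDs for Kdr.

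Most of a further 20 endothelial genes that are not among the 10 fell as well. Of the 20, 18 were significantly lower, 3 of them outside the filter, and none was higher. The median log2 fold change was −1.87 when no filter was applied. Leading falls were those of the tight junction protein gene Cldn5 (log2 fold change −3.05), of Ptprb, which encodes the endothelial phosphatase VE-PTP (−2.82), and of Ushbp1 (−2.44). Endomucin (Emcn) and endoglin (Eng), a TGF-β co-receptor that other stromal cells also carry, did not pass, with −0.49 and 0.36. The mean log2 level of the 20 genes was between 3.18 in tumor 1 and 3.88 in tumor 7, and 5.51, 5.54 and 4.83 in glands 1, 2 and 3.

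These 20 genes served as a yardstick for the 10. When each library was scaled to their mean log2 level, the median over all 11795 log2 fold changes shifted to 1.69, with 0.687% of the genes called lower and 86.5% called higher. Changes under this scaling are relative to the other endothelial genes and not to the tissue. Cdh5 and Kdr were still lower, by log2 fold changes of −1.45 ± 0.40 (SE; limma, p = 0.00207, adjusted p = 0.00249) and −1.30 ± 0.25 (limma, p = 8.20e-05, adjusted p = 0.000132). Flt1 was higher, by 1.18 ± 0.39 (limma, p = 0.00757, adjusted p = 0.00858), against a background in which most genes were. Pecam1, at −0.61 ± 0.21 (limma, p = 0.0108, adjusted p = 0.0121), did not reach the 2-fold limit. The other 6 were not called, with log2 fold changes of 0.84 for Flt4, 0.69 for Lyve1, 0.53 for Vwf, 0.22 for Prox1, 0.03 for Tek and −0.27 for Tie1. Flt4 lay near the 2-fold limit and was called higher as well with a pseudocount of 0.25 (1.05, adjusted p = 0.0147), in edgeR (1.10, adjusted p = 0.0219) and in DESeq2 (1.09, adjusted p = 0.00818). The calls rested on the glands: with gland 3 alone Cdh5 was at −0.10 (adjusted p = 0.858) and Kdr at −0.88 (adjusted p = 0.0692), and without gland 3 Flt1 was at 0.82 (adjusted p = 0.0747). Flt1 was not called with the replicate number as a block either (0.99, adjusted p = 0.177).

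**Figure D4:**
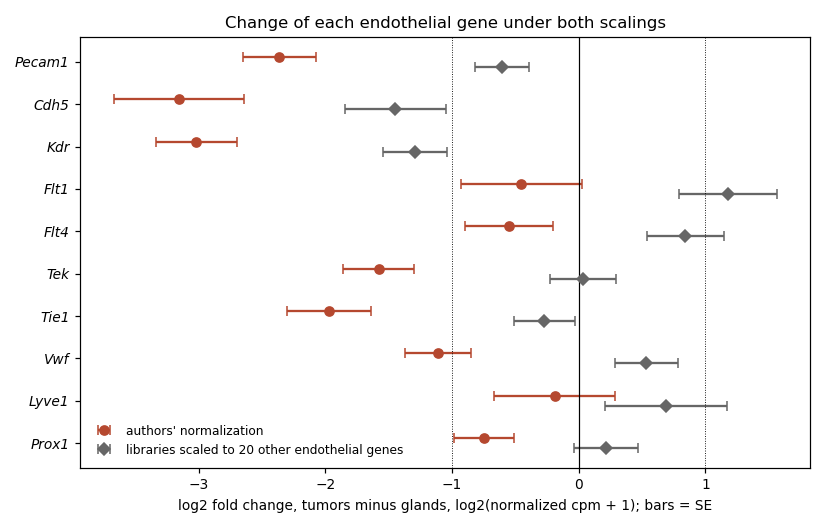
Log2 fold change of tumors minus glands on the log2(normalized cpm + 1) scale (horizontal axis) for each endothelial gene, with bars for the SE of limma. Red circles use the authors' normalization and grey diamonds libraries scaled to 20 other endothelial genes; dotted lines mark the 2-fold limit. The scaling shifts all genes upward, Flt1 from −0.46 to 1.18, Cdh5 from −3.16 to −1.45 and Kdr from −3.02 to −1.30.

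Among the ligands and co-receptors that act on these receptors, 3 of 9 measured genes were lower, 1 was higher and 5 did not pass, with a median log2 fold change of −0.95. The gene that rose was Pgf, which encodes placental growth factor, a ligand of Flt1 but not of Kdr. It was at 38.0 to 88.2 normalized cpm in the tumors and at 2.95, 4.59 and 3.29 in glands 1, 2 and 3, with all tumors above all glands, as for 10.7% of the genes tested, and a log2 fold change of 3.63 ± 0.26 (SE; limma, adjusted p = 2.34e-07). The co-receptors Nrp1 and Nrp2 fell, with log2 fold changes of −1.78 and −1.58, and so did Vegfd, a ligand of Flt4, with −1.21 on low values. For Vegfa the tumors spread from 32.5 to 211 normalized cpm around glands at 118, 132 and 113, and its log2 fold change was −0.38 ± 0.39 (SE; limma, adjusted p = 0.517). The Tie2 ligands Angpt1 and Angpt2 were at 0.36 (adjusted p = 0.607) and −0.95 (adjusted p = 0.0981).

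The genes of vessel subtypes did not all follow the 10. Of 8 genes of capillary and adipose endothelium, 7 were lower, with a median log2 fold change of −3.04, led by Fabp4 (−6.28), Cd36 (−5.07) and Car4 (−3.98). Fabp4 and Cd36 are also abundant in adipocytes. Their list had sums of 220 to 486 normalized cpm in the tumors and 3595, 4013 and 11072 in glands 1, 2 and 3, so that here gland 3 was the highest gland. Of 8 arterial genes, 4 were lower and 4 were higher. Sox17 (−2.36), Sema3g (−2.29) and Gja4 (−1.13) had the largest falls, and Bmx (1.75), Efnb2 (1.66) and Hey1 (1.56), which epithelial cells can also express, the largest rises. Of 7 venous and activated genes, Aplnr (−2.82) and Nr2f2 (−1.14) were lower and 5 did not pass.

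Of 8 genes of angiogenic tip cells, 6 were lower, led by Apln (−3.49) and the basement membrane collagens Col4a1 (−2.26) and Col4a2 (−2.09), and Esm1 was higher. Esm1, a VEGF-induced proteoglycan of sprouting endothelium, was at 6.67 to 28.1 normalized cpm in the tumors and at 2.48, 3.25 and 2.32 in the glands, with a log2 fold change of 2.12 ± 0.32 (SE; limma, adjusted p = 0.000201). Of 9 further lymphatic genes, 4 were lower and 3 higher. Ccl21a (−3.71), Reln (−2.50) and Thy1 (−2.03) had the largest falls, and Gja1 (2.64), Foxc2 (2.08) and Pdpn (2.07) the largest rises; Gja1 and Pdpn are also genes of basal epithelial cells and Thy1 is also a gene of lymphocytes and fibroblasts. Ccl21a was at 92.2 and 50.5 normalized cpm in glands 1 and 3 and at 0.258 in gland 2, and the lymphocyte markers had sums of 507, 21.7 and 531 in glands 1, 2 and 3. Of 10 pericyte and vascular smooth muscle genes, 2 were lower, Myh11 (−5.05), which myoepithelial cells also express, and Abcc9 (−1.55), and 8 did not pass.

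**Figure D5:**
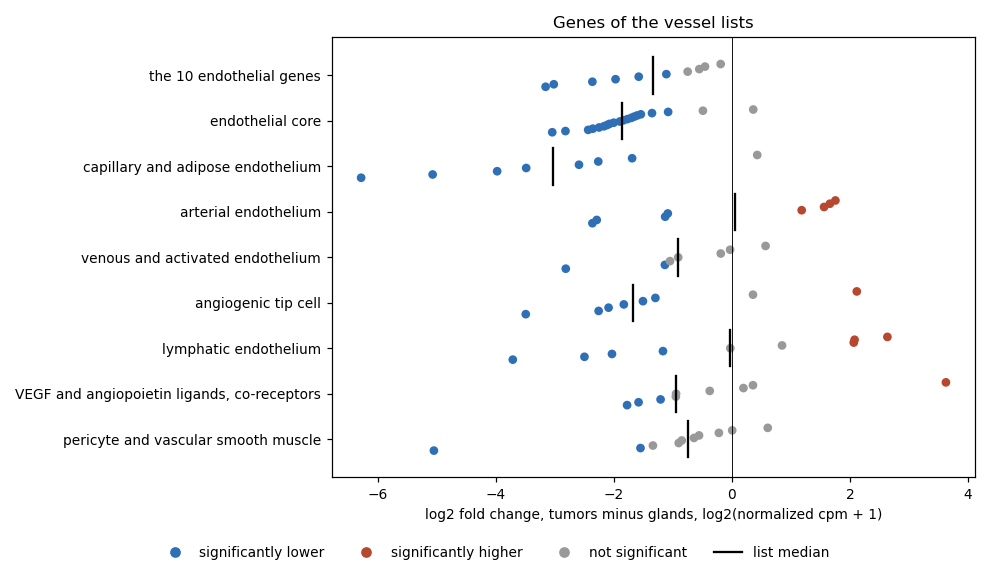
Log2 fold change of tumors minus glands on the log2(normalized cpm + 1) scale (horizontal axis) for each gene of the 10 endothelial genes and of 8 further lists (rows). Blue points are significantly lower, red points significantly higher and grey points not significant genes, and black bars the list medians; the 20 other endothelial genes have a median of −1.87 and the arterial genes one of 0.05.

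Among the tumors, the same libraries often held the highest or the lowest level of the 10 genes. Tumor 7 had the highest level of 6 of the 10 genes and tumor 1 the lowest level of 6. Tumor 7 was also the tumor with the highest mean of the 20 other endothelial genes and tumor 1 the one with the lowest. The genes whose log2 levels followed the mean standardised level of the 10 most closely over the 10 tumors were Osbpl11 (Pearson r = 0.894), Ramp2 (0.892), Robo4 (0.889), Loxl2 (0.882), Col5a2 (0.876), Il34 (0.863), Oas2 (0.862) and Lama4 (0.862). These are the highest of all genes tested over only 10 tumors, several of which share an animal and all of which share the depth and scaling of their library, and no test was made. Ramp2, Robo4, Col5a2 and Lama4 were significantly lower in the tumors, whereas Osbpl11, Loxl2, Il34 and Oas2 did not pass.

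Tsg101 itself, the check of the labels, was at 49.9 to 101 normalized cpm in the tumors and 45.6 to 61.0 in the glands, with a log2 fold change of 0.30 ± 0.20 (SE; limma, adjusted p = 0.296). The RNA level of the gene therefore does not separate the labelled groups. Milk protein genes took 11.5% to 12.3% of the reads in the glands and 0.0930% to 4.69% in the tumors.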

How the data were processed

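Total RNA from 10 mammary tumors and 3 mammary glands was sequenced as 75 bp paired-end reads. The authors used Rsubread for mapping to mm10, its featureCounts for the counts of each gene and edgeR for normalization; the strand setting was not given in the sources used here. Sequencing was done at a core facility and at Novogene, and since the labels do not assign libraries to either, no batch could be fitted. The deposited values are a signal, reads of a gene over the effective size of its library, called normalized cpm here; 100% of them were within 0.01 of a whole number of reads, and reads were recovered from them.

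The test was limma (3.58.1 in R 4.3.3) with a variance trend on log2(normalized cpm + 1) of the 13 libraries, fitted to condition alone. A filter removed 3418 genes that were at 5 or less in the majority of libraries and kept 11795. Called genes had a Benjamini-Hochberg FDR below 0.05 and a change above 2-fold. Genes outside the filter, of the 10 or of a further list, came from the same fit on the whole table, in which 10.1% were called lower. A gene high only in the 3 glands cannot pass the filter. Outside it lay 2 of the 7 capillary, 3 of the 4 arterial and 3 of the 4 further lymphatic genes called lower. The same held for 1 of the 4 arterial and 1 of the 3 lymphatic genes called higher. A fold change on this scale understates the change of low genes. edgeR (4.0.16) and DESeq2 (1.42.0) on the recovered reads, other filters, pseudocounts and scalings, the sum of tumors of the same female, the female or the replicate number as a block, and the omission of libraries were run as alternatives, and the pipeline was tested on simulated data.

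The depth was between 6176269 and 23889042 reads, so that a count of 0 allows up to 3 reads, or 0.128 to 0.683 normalized cpm, for counting error only. Coordinates are of RefSeq GRCm38.p6 (mm10), joined by Entrez ID. Reads of the long non-coding RNAs Gm29682, Gm32727, Gm35383 and Prox1os, which overlap Cdh5, Kdr, Flt1 and Prox1, could not be separated from those genes. The named genes were the 10 endothelial genes, up to 3 called genes with the largest rise and up to 3 with the largest fall in each further list, the 8 genes most like the 10 over the tumors, Tsg101 and Rn45s; other genes named were chosen after their values were seen. The endothelial genes and the 18 further lists were chosen with earlier results of these data known.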

Additional observations from a re-analysis of the deposited data

Results flagged for a closer look

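In 13 quantities the highest and the lowest of the 10 tumors were compared with the nearest other tumor, as the gap divided by the range of the group (Dixon's ratio, against its 95% limit for 10 samples). By chance about 1 in 20 groups of normally distributed values passes. The values here were not log transformed, so this rate need not hold for them. Pecam1 passed with 0.5454 and Flt1 with 0.5549, in both cases for the high value of tumor 7. Lyve1 passed with 0.6513 for the high value of tumor 8. Outside the endothelial genes, the Rn45s share of the reads passed with 0.6705 for tumor 9, and the share of the milk genes with 0.5032 for tumor 6. Without tumor 7 the log2 fold changes were −2.47 for Pecam1 and −0.62 for Flt1, and without tumor 8 that of Lyve1 was −0.38, each on the same side of the threshold as with all tumors.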

How the results depend on the processing

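The count of 6 endothelial genes called was 3 with libraries scaled to the 20 other endothelial genes and 3 with the replicate number as a block. It was 9 with libraries scaled to epithelial genes, where Flt1, Flt4 and Prox1 were called as well, and 5 to 8 when single libraries were left out. The count of 18 among the 20 other endothelial genes was 8 with the replicate block and 16 to 18 when single libraries were left out. It was 4 with the endothelial scaling, which centres these same genes by construction and is no test of them. The 10 genes had a median log2 fold change of 0.12 with the endothelial scaling and −2.34 with libraries scaled to epithelial genes. It was −1.59 to −1.22 when single libraries were left out. With gland 3 as the only gland, a setting chosen after seeing the data, the median was −0.95. Over all genes, 1538 were called lower without the filter, 81 with the endothelial scaling, 5875 with the epithelial scaling and 182 with the replicate block, and 658 to 1123 without single libraries; 10198, 470 and 362 were called higher in the last 3 of these settings, and 1003 to 1537 without single libraries. The endothelial scaling turned Flt1 to 1.18, Flt4 to 0.84, Lyve1 to 0.69, Vwf to 0.53, Prox1 to 0.22 and Tek to 0.034. Lyve1 was between −0.44 and 0.29 without single libraries, the latter without gland 3, and with gland 3 alone Flt1 was 0.74 and Flt4 0.53. With the endothelial scaling, Tek turned to −0.13 with the replicate block, −0.018 without tumor 4, −0.032 without tumor 9 and −0.085 without the female with 3 tumors (−0.032 to 0.11 over the single libraries left out), and with gland 3 alone Tie1 turned to 0.42 and Lyve1 to −0.20; the 3 genes called there were 2 with the replicate block, where Flt1 (0.99, adjusted p = 0.177) was not called, 2 to 3 without single libraries and 4, with Flt4, at a pseudocount of 0.25, in edgeR and in DESeq2. Prox1 with the replicate block was −0.85 (adjusted p = 0.242). The cause of these changes was not tested, except that the scalings shift all genes by construction.

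The replicate numbers do not pair the samples, since tumors and glands came from different females and the deviations of equally numbered tumors and glands had correlations of −0.58, 0.04 and −0.66. The replicate block lowered the calls, with Cdh5 at −3.47 (limma, adjusted p = 0.0839), Tie1 at −2.26 (adjusted p = 0.0731) and Vwf at −1.30 (adjusted p = 0.203) no longer called. The depth limits Lyve1 and Prox1, which rest on as few as 2 reads. TMM was not run with the endothelial scaling, which replaces it.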

Other observations

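Among markers of cells outside the vessels, 8 of 10 lymphocyte genes and 4 of 5 genes of lymph node stroma were lower in the tumors (limma). Of these, 7 lymphocyte genes and all 4 of lymph node stroma lay outside the filter on low values. Gland 2 had far less of both lists than the other glands, with sums of 21.7 and 18.3 normalized cpm. These sums were 507 and 199 in gland 1 and 531 and 153 in gland 3. The 6 milk protein genes were all lower, with a median log2 fold change of −4.23. The 4 red cell genes and the 6 skeletal muscle genes did not pass the test, with medians of −1.20 and 0.96. Single libraries stood apart in both: the skeletal muscle sum was 2391 normalized cpm in tumor 4 and 356 in tumor 10, against 4.32 to 17.3 in the other tumors, and the red cell sum was 1715 in tumor 5, against 32.9 to 424 in the other tumors. Of 10 macrophage genes, Timd4 was lower, Cd68 and Cd14 were higher and 7 did not pass.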
